A study of Mus musculus with 2 samples.

Results

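A group of 7 genes of carbonyl, quinone and amine oxidation and reduction were followed in intestinal organoids labelled as adiponectin knockout (AdipKO) and control (WT). They were Nqo1, Cbr3, Akr1b8, Akr1c14, Akr1c19, Me1 and Maoa, which are 7 of the 1448 genes with deposited values. They were chosen by gene symbol, with their AdipKO and WT read counts already known, so the count ratios of these genes are a description and no test of a difference is given. All 7 were found in both libraries, which follows from their choice among the genes with deposited values.

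The AdipKO organoids came from Adipfl/flpVilli-CreT mice, in which Cre under the villin promoter removes the floxed adiponectin gene from the gut epithelium. WT organoids were grown from Adipfl/fl mice, which carry the same floxed alleles without Cre. Crypts from small intestine were grown in Matrigel with EGF, Noggin and R-spondin, and no further treatment, age or sex is given for either genotype. Each genotype had 1 RNA library, how many mice or wells it drew on was not given, and no value below has replicate error. The tables hold estimated read counts for a selected set of genes: no gene had a raw log2 count ratio between -1.04 and 0.96. Genes outside the tables were not analysed here, and the listed counts, 689005 in AdipKO and 802995 in WT, are not library depths. Adipoq, which encodes adiponectin, was outside the listed genes. Which library is the knockout is thus known from the labels alone, and the tables give reason to doubt them. Lgr5, the defining crypt base stem cell marker, had 3127 counts in the library labelled AdipKO and 7858 in the library labelled WT, and Olfm4 had 34083 and 92810. Ascl2, Tnfrsf19, Mycl and Lyz1 were also lower in the library labelled AdipKO. The study's text gives these markers the opposite direction in the knockout organoids, from RNA-seq and qRT-PCR, and reports more Lgr5 staining there. The counts here are not scaled to library depth, which is unknown. The log2 ratio of Lgr5, AdipKO over WT, was -1.33, and the scalings tried add at most 0.22. By these counts, the labels of the tables and the RNA-seq direction in that text conflict. AdipKO and WT below stand for the libraries labelled so, and if the labels were exchanged every direction would turn.

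Quinones and reactive carbonyls arise in the gut from food, microbes and lipid oxidation. Epithelial cells detoxify them by reduction with NADPH or NADH, which turns a quinone into a hydroquinone and an aldehyde or ketone into an alcohol. Many of the enzymes are under the transcription factor NRF2, which binds antioxidant response elements in DNA once it escapes its inhibitor KEAP1. Nqo1 is the textbook NRF2 target, and Cbr3, Akr1b8 and Me1 are also commonly counted among its targets.

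The promoter windows of 4 of the genes are shown because the 7 genes differed in one direction and these windows hold a match to one of 3 motifs searched. Each window runs from 250 bases before to 50 bases from the start site used by RefSeq (GRCm38.p6, the assembly behind mm10), and position 1 is the start site. The motifs were the antioxidant response element core TGACNNNGC, the AP-1 motif TGANTCA and the xenobiotic response element core GCGTG, read on both strands. The antioxidant response element core can overlap the AP-1 motif. Capitals mark the matches. Me1 is at chr9:86695865-86696164 on the minus strand, Akr1c19 at chr13:4233490-4233789, Akr1b8 at chr6:34353896-34354195 and Akr1c14 at chr13:4059341-4059640, the last 3 on the plus strand.
Me1: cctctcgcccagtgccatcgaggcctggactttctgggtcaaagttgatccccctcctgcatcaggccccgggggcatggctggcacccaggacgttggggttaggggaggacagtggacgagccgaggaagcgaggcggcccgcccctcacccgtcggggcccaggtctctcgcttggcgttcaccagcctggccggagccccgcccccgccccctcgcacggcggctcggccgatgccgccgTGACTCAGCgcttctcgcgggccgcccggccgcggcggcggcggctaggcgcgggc
Akr1c19: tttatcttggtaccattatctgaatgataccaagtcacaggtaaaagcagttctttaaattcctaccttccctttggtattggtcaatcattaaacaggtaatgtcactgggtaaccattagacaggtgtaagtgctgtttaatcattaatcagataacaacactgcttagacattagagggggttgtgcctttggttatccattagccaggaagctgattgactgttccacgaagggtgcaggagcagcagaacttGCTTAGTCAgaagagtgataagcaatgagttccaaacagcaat
Akr1b8: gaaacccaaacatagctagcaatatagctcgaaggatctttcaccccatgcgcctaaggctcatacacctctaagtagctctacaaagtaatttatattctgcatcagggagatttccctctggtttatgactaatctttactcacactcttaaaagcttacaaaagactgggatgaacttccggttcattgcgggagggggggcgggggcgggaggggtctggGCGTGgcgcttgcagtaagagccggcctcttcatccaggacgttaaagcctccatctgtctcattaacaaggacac
Akr1c14: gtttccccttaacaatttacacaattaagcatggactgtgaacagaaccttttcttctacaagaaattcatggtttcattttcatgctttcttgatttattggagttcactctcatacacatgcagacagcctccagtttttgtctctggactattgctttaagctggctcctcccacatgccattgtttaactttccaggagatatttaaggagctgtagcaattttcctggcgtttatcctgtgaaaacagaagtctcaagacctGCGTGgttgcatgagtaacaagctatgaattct

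The RefSeq starts of Akr1c14 and Akr1c19 lie inside the gene spans given below. The Me1 window held TGACTCAGC from position -6 to 3, across the start site, and its first 7 bases also match the AP-1 motif. The Akr1c19 window held TGACTAAGC on the opposite strand, from position 8 to 16. The antioxidant response element core was thus in the windows of 2 of the 7 genes, or 2 of their 8 windows, too few to compare shares. It was in 4071 of all 32851 RefSeq windows of this length (12.4%) and in 90 of the 548 windows of listed genes higher in AdipKO (16.4%). The AP-1 motif, in 7.81% of all windows, was met in Me1 alone among the 7 genes. The short core GCGTG, in 32.4% of all windows, lay at positions -26 to -22 of Akr1b8 and 18 to 22 of Akr1c14. The windows of Nqo1, Cbr3 and Maoa had no match to the 3 motifs, which says only that these letters are not in these 300 bases. Me1 has a further RefSeq start, and that window had no match either.

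The library labelled AdipKO had the higher count for all 7 genes, from 2.05-fold for Me1 to 7.68-fold for Akr1c14. Their median log2 ratio, AdipKO over WT, was 2.21, beside 1.53 for listed genes 2-fold or more higher and -1.15 for all listed genes. By a limit of 2-fold, with 1 count added to each library, 7 of 7 genes were higher, beside 35.3% of all listed genes. At 4-fold, 5 of 7 were higher, beside 9.94% of all listed genes. Since the genes were chosen with these ratios known, nothing is read from either count. Together they had 21365 counts in AdipKO and 4751 in WT, 4.497-fold higher (95% interval 4.36 to 4.64). Maoa made up 41.8% of these counts in AdipKO and 40.6% in WT, and without it the sums were 12426 and 2823, 4.40-fold higher (4.23 to 4.59). All intervals are exact 95% intervals of a ratio of counts and cover counting error only.

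**Figure D1:**
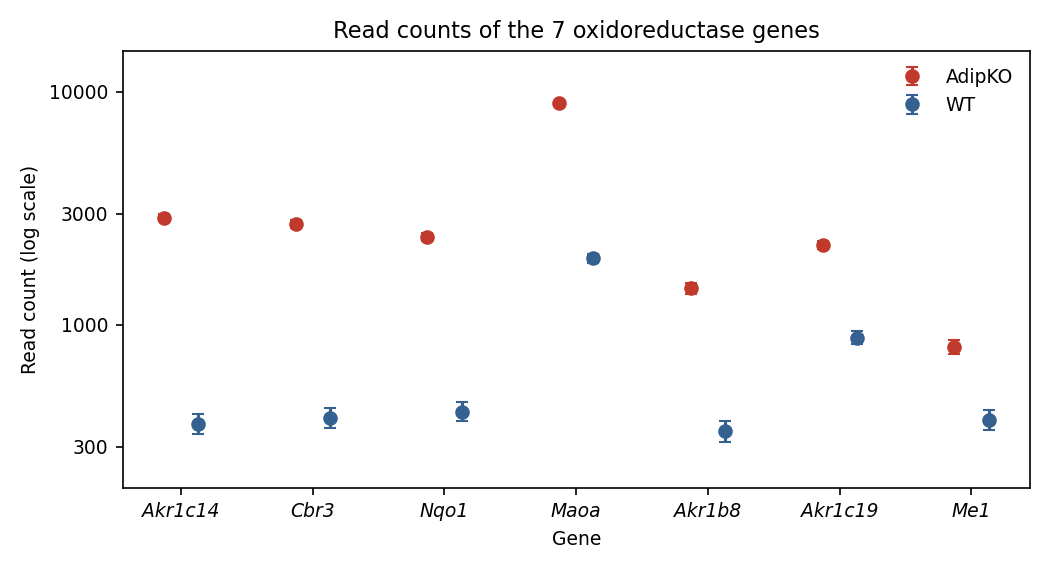
Read counts (log scale) of the 7 genes in the AdipKO and WT libraries, in order of their ratio. Points are the count in the 1 library per genotype and bars its exact 95% Poisson interval. All 7 genes sit higher in AdipKO, with Akr1c14 at 2887 against 376 and Me1 at 803 against 391.

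Nqo1 (NCBI gene 18104) encodes NAD(P)H quinone dehydrogenase, which reduces quinones to hydroquinones without passing through a radical. It had 2385 counts in AdipKO and 425 in WT, 5.61-fold higher (5.06 to 6.24). The gene is on chromosome 8 from 107388225 to 107403205, on the minus strand (GRCm38.p6, as are all positions here). It ranked 64th from the top by ratio among the 1448 listed genes.

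Cbr3 (gene 109857) encodes an NADPH-dependent carbonyl reductase of the short-chain dehydrogenase family. It had 2712 counts in AdipKO and 399 in WT, 6.80-fold higher (6.12 to 7.57). It is on chromosome 16 from 93683219 to 93690991, on the plus strand, and ranked 46th. There were 0.879 Nqo1 reads per Cbr3 read in AdipKO (0.832 to 0.930) and 1.07 in WT (0.927 to 1.22), and the intervals just overlapped.

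The 3 aldo-keto reductases, enzymes for aldehydes, ketones and steroids, differed among themselves. Akr1c14 (gene 105387), a 3-alpha-hydroxysteroid dehydrogenase in the mouse, had 2887 counts in AdipKO and 376 in WT, 7.68-fold higher (6.89 to 8.57). This was the largest ratio of the 7 genes, 27th among all listed genes. Akr1b8 (gene 14187), a relative of aldose reductase, had 1437 counts in AdipKO and 350 in WT, 4.11-fold higher (3.65 to 4.63). Akr1c19 (gene 432720) had 2202 counts in AdipKO and 882 in WT, 2.497-fold higher (2.31 to 2.70). The interval of Akr1c19 lay below those of the other 2.

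Akr1c14 and Akr1c19 belong to one gene cluster on chromosome 13, at 4048991 to 4090560 and 4233503 to 4248361, both on the plus strand. Akr1c14 had 1.31 reads for each Akr1c19 read in AdipKO (1.24 to 1.39), against 0.426 in WT (0.377 to 0.482). The intervals of the 2 ratios did not overlap, and a ratio within a library does not depend on how the libraries are scaled. Akr1b8 lies in another cluster, on chromosome 6 from 34354146 to 34368461 on the plus strand. Of 17 genes in the aldo-keto reductase list these 3 were the ones listed. Akr1c12, Akr1c13 and Akr1c18, within 250 kb of both cluster genes, and Akr1b3, Akr1b7 and Akr1b10, within 250 kb of Akr1b8, were outside the tables.

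Me1 (gene 17436) encodes the cytosolic malic enzyme, which makes NADPH while turning malate into pyruvate. It had 803 counts in AdipKO and 391 in WT, 2.05-fold higher (1.82 to 2.32). It is on chromosome 9 from 86581363 to 86695914, on the minus strand. With a log2 ratio of 1.04, it stood near the edge of the listed genes, 485th of the 547 that were higher by sign. The AdipKO library had 3.60 Akr1c14 reads per Me1 read (3.32 to 3.89), against 0.962 in WT (0.832 to 1.11).

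Maoa (gene 17161) encodes monoamine oxidase A of the mitochondrial outer membrane, which deaminates serotonin and other amines and releases an aldehyde and hydrogen peroxide. Unlike the reductases it produces a carbonyl. It had 8939 counts in AdipKO and 1928 in WT, 4.64-fold higher (4.41 to 4.87), the highest raw counts of the 7 genes in both libraries, which also grow with its long transcript. It is on chromosome X from 16619698 to 16687812, on the plus strand, and ranked 100th by ratio. Its neighbour and relative Maob, which prefers other amines, had 1295 counts in AdipKO and 327 in WT, 3.96-fold higher (3.51 to 4.48). Maoa had 6.90 reads per Maob read in AdipKO (6.51 to 7.32) and 5.896 in WT (5.24 to 6.65), with intervals that overlap. Maob is no member of the group of 7.

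In order of fold change the genes ran Akr1c14, Cbr3, Nqo1, Maoa, Akr1b8, Akr1c19 and Me1. The intervals did not overlap at the steps from Nqo1 to Maoa and from Akr1b8 to Akr1c19. They overlapped at the other steps, which does not show that those folds were alike, and the differences between folds were not tested. All 7 were well counted: in the library with the higher count, each stood at percentile 86.4 or above among the listed genes, whose median was 81.4 counts.

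**Figure D2:**
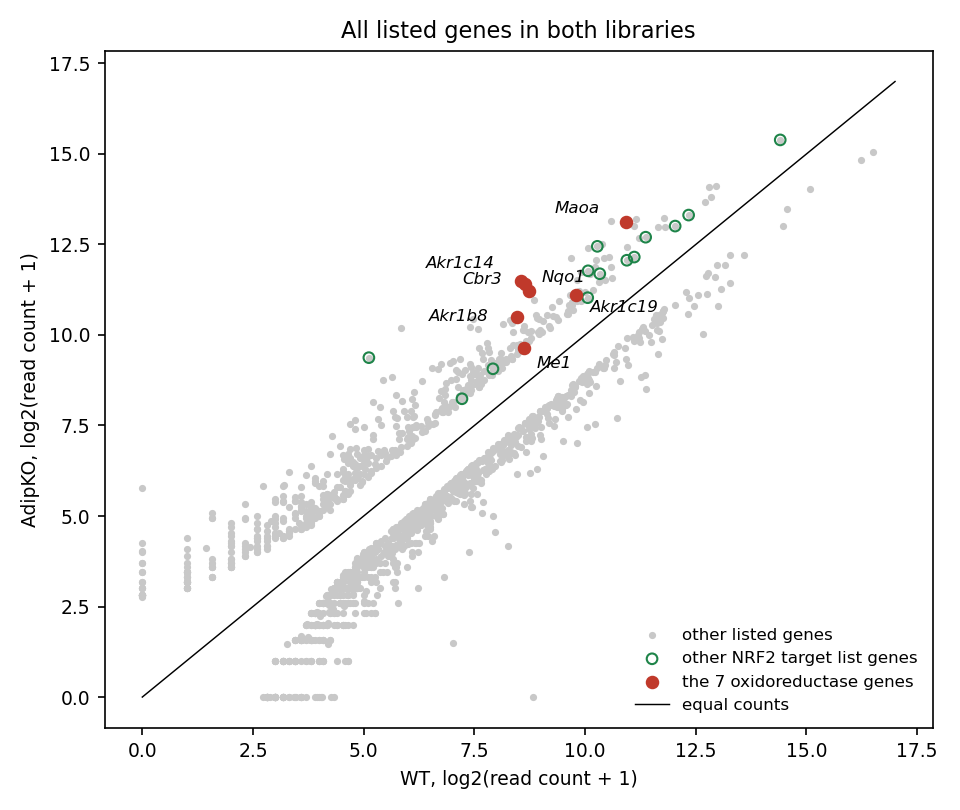
Each listed gene by its WT count (x axis) and AdipKO count (y axis), both as log2(count + 1); the line marks equal counts, and genes near it are absent from the tables. The 7 genes (filled, named) and the 13 other listed genes of the NRF2 target list (open) lie above the line.

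Levels can be compared between genes only per transcript length. With the median length of the protein-coding GENCODE transcripts, Cbr3 led in AdipKO with 2318 reads per kb, followed by Maoa with 2145. Akr1c19 had 1773, Nqo1 1536, Akr1b8 1058, Akr1c14 1028 and Me1 244 reads per kb in AdipKO. In WT the order began with Akr1c19 at 710.1 reads per kb, Maoa at 463 and Cbr3 at 341. Nqo1 had 274, Akr1b8 258, Akr1c14 134 and Me1 119 reads per kb in WT. Neighbours with overlapping Poisson intervals were Akr1b8 and Akr1c14 in AdipKO, and in WT Nqo1 and Akr1b8, and Akr1c14 and Me1. The place of Akr1c19 rests on the length used, since its 3 coding transcripts have a median of 1242 and a maximum of 5832 bases. With the longest transcript it had 378 reads per kb in AdipKO and 151 in WT, between Akr1c14 and Me1 in AdipKO and between Akr1b8 and Me1 in WT. Akr1c14 then had 118.1 reads per kb in WT, just under Me1 at 118.8.

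**Figure D3:**
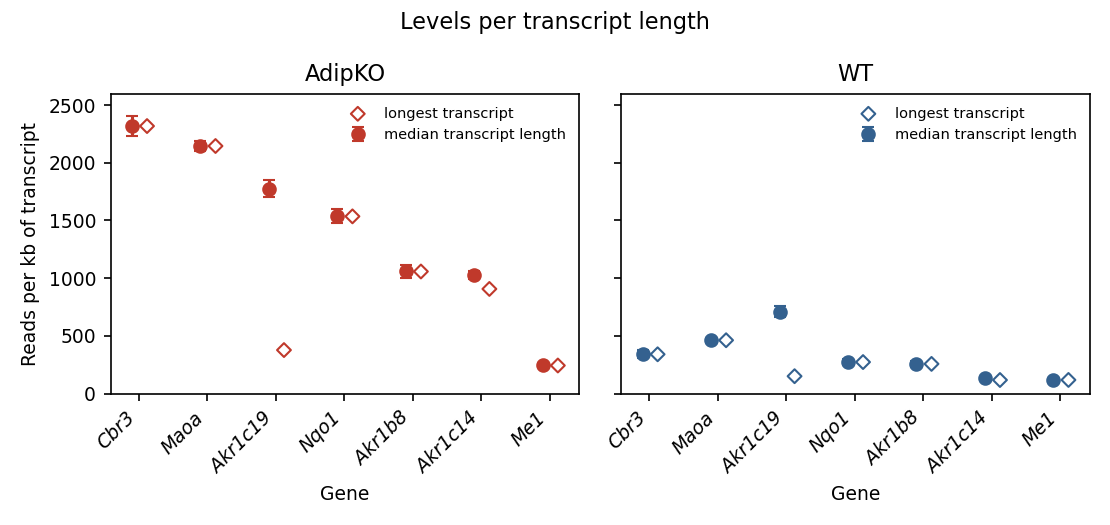
Reads per kb of transcript for the 7 genes in AdipKO (left) and WT (right), in the AdipKO order. Filled points use the median transcript length, with exact 95% Poisson intervals, and open diamonds the longest transcript. Akr1c19 shifts most, at 1773 against 378 reads per kb in AdipKO, and Akr1c14 shifts less, at 1028 against 907.

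Related genes could share reads, so coding sequences were aligned within families. The counts of the 7 genes were whole numbers, whereas 209 listed genes had a fractional count. Akr1c14 and Akr1c19 were 73.2% identical in coding sequence, with no shared run longer than 18 bases. The closest relative of Akr1b8 was Akr1b10, 85.0% identical with a shared run of 80 bases, then Akr1b7 with 84.5% and 52 bases. Akr1c14 was closest to Akr1c18 (76.8%, 48 bases) and Akr1c19 to Akr1c13 (77.9%, 34 bases). Cbr3 was 77.0% identical to Cbr1 with a shared run of 50 bases, Maoa 68.3% to Maob with 35 bases, and Nqo1 49.3% to Nqo2 with 14 bases. Me1 was 64.2% identical to Me3. Akr1b8 thus had the closest relatives by this measure. How reads that match more than 1 gene were assigned is not given, and the number of such reads was not measured here. The transcripts of the 7 genes had a median GC content of 46.2%, against 54.1% for listed genes lower in AdipKO and 49.8% for those higher. Cbr3 (55.98%) and Akr1b8 (51.1%) were above the median of the higher genes. The part of GC content in the ratios was not tested.

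Other NRF2 targets were set beside these genes from a list written out in full, with earlier results of these data known. Of the 52 targets other than Nqo1, Cbr3, Akr1b8 and Me1, 13 were listed and all 13 were higher by sign, with a median log2 ratio of 1.12. The remaining targets were outside the tables, which leave out genes that differed little. The direction and median thus describe only the 13 listed targets. By the 2-fold limit, 9 were higher and 0 lower, beside 35.3% and 62.2% of all listed genes. The other 4 had log2 ratios of 0.97 to 0.98. Both scalings of the libraries that were tried add to every ratio, by 0.042 or 0.22. No listed gene that was higher had a raw log2 ratio under 0.96. That all 13 then passed the limit was thus set by the scalings and says nothing about these targets. Glutathione S-transferases made up 7 of the 13. Gsta2 had 662.4 counts in AdipKO and 33.7 in WT (log2 ratio 4.26), Gsta1 had 5588 and 1239 (2.17), and both have fractional counts in tables of estimated reads. Gsta3 had 3497 counts in AdipKO and 1072 in WT, and Gstm3 had 3306 in AdipKO and 1288 in WT. Among the targets of other function, Slc7a11, the cystine transporter for glutathione synthesis, had 4281 counts in AdipKO and 1967 in WT, 2.18-fold higher (2.06 to 2.297). Gclm, the modifier subunit of the enzyme that begins glutathione synthesis, had 2090 counts in AdipKO and 1066 in WT, 1.96-fold higher (1.82 to 2.11). Ftl1, the ferritin light chain, had 42864.5 counts in AdipKO and 21725.78 in WT. Of the 13, Gsta2 alone had a larger ratio than Cbr3 and Nqo1, and Gsta2 and Gsta1 alone had larger ratios than Akr1b8. Of 11 regulators of NRF2 and related factors, Bach2 and Nfe2l3 were listed and both were lower, at 4 and 15 counts in AdipKO against 19 and 43 in WT. Nfe2l2, which encodes NRF2, and Keap1 were outside the tables.

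**Figure D4:**
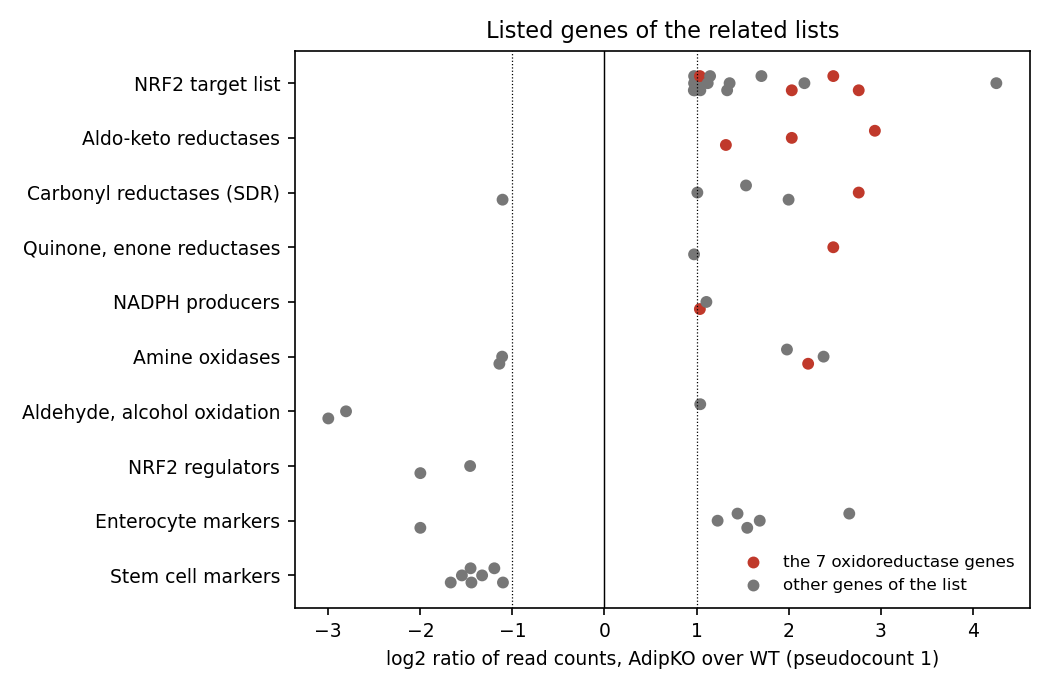
Log2 ratio of read counts, AdipKO over WT with 1 added to each count, for the listed genes of each list (rows); dotted lines mark 2-fold and the points are spread in height for legibility only. The 7 genes are in colour; the 13 other NRF2 targets lie between 0.97 and 4.26, and the amine oxidases, carbonyl reductases and oxidation enzymes lie on both sides.

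Other listed enzymes of the same chemistry lay on both sides. Of all listed genes, 35.3% were 2-fold or more higher in AdipKO and 62.2% lower, and nothing is read from counts of a few enzymes. Of 32 short-chain carbonyl reductases other than Cbr3, 4 were in the tables: 3 higher by 2-fold or more and 1 lower. Their median log2 ratio was 1.27, which rests in part on Cbr2 with few reads. With a minimum of 16 counts, which leaves Cbr2 out, 2 were higher and the median was 1.01, and with a pseudocount of 5 these values were 2 and 1.08. Dcxr, which reduces dicarbonyls and xylulose, had 1407 counts in AdipKO and 484 in WT, 2.91-fold higher (2.62 to 3.23). Dhrs3, a retinaldehyde reductase, had 160 counts in AdipKO and 79 in WT, and Cbr2 had 11 and 2. Dhrs4, a peroxisomal carbonyl reductase, went the other way with 1155 counts in AdipKO and 2489 in WT, 2.15-fold lower (2.01 to 2.31). Of 9 quinone and enone reductases other than Nqo1, Ptgr1, a prostaglandin reductase, was the one listed, with 10167 counts in AdipKO and 5178 in WT, 1.96-fold higher (1.90 to 2.03).

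Among 19 NADPH-producing enzymes other than Me1, Aldh1l2, a mitochondrial enzyme of folate metabolism, was the one listed, with 600 counts in AdipKO and 278 in WT. No enzyme of the pentose phosphate pathway in the list was in the tables. Of 14 amine oxidases other than Maoa, 4 were in the tables: 2 higher and 2 lower, beside 35.3% and 62.2% of all listed genes. Their median log2 ratio, 0.44, falls between the 2 higher and the 2 lower genes, in the gap where no gene was listed. Aoc1, the diamine oxidase that degrades histamine and putrescine, had 530 counts in AdipKO and 101 in WT, 5.25-fold higher (4.23 to 6.56). Aoc2 had 55 counts in AdipKO and 120 in WT, and Loxl2, a lysyl oxidase, had 16 in AdipKO and 36.51 in WT.

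The listed genes with counts most like those of the 7 genes, by distance in log2(count + 1) over the 2 libraries, are given as a description of 2 values per gene. Sult1c2, a sulfotransferase, was nearest to Akr1c14, Cbr3 and Nqo1, with 2524 counts in AdipKO and 432 in WT and distances of 0.28, 0.15 and 0.085. Sult1d1, of the same family, was nearest to Akr1b8 with 1359 counts in AdipKO and 315 in WT. Sat1, which acetylates polyamines, was nearest to Maoa with 8291 counts in AdipKO and 2210 in WT. Hkdc1 was nearest to Akr1c19 and Ly6g2 to Me1. On the chromosomes, 4 of the 7 genes had another listed gene within 250 kb, which were Tubal3 and Akr1c19 for Akr1c14, Akr1c14 for Akr1c19, Maob for Maoa and Ube2cbp for Me1. Ube2cbp was lower in AdipKO, and the others were higher. Akr1c14 and Akr1c19 count each other here. The share of all listed genes with such a neighbour was not computed, so nothing is read from this count.

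Markers of epithelial cell types also differed between the libraries, to be read beside the 35.3% of all listed genes that were 2-fold or more higher in AdipKO and the 62.2% that were lower. Of 22 enterocyte markers 6 were listed, 5 of them 2-fold or more higher, and their summed counts were 6868 in AdipKO and 2251 in WT. Of 14 crypt base stem cell markers 7 were listed, all 7 lower, with sums of 42109 in AdipKO and 113124 in WT, the direction that bears on the labels as set out above. Paneth cell markers were lower in 6 of 7 listed genes out of 16 (35857 in AdipKO, 67151 in WT), and enteroendocrine markers in 6 of 6 out of 14 (4469 in AdipKO, 10633 in WT). Of 12 tuft cell markers 3 were higher and 1 lower (81 in AdipKO, 69 in WT). No marker of goblet cells (11 genes), endothelium (6) or the epithelium in general (8) was listed, so the epithelial label could be checked only against markers of single cell types. Of 8 fibroblast markers Vim alone was listed, with 109 counts in AdipKO and 322 in WT, and of 8 immune markers Itgam and Cd68 were, with a sum of 292 in AdipKO and 134 in WT. The part of these cell types in the counts of the 7 genes was not tested. In whole organoids, more cells of a type and more RNA per cell cannot be told apart.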

How the data were processed

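A single RNA library each of AdipKO and WT organoids was read by paired-end sequencing (MGISEQ-2000, BGI), and the study's methods give expression as FPKM and judge differences by fold change. The authors deposited estimated counts of reads per gene, per the file headers, not scaled to library size. The build was mm10 per the labels; for the aligner, counting program, strand handling and annotation, the entry is: not given in the sources used here.

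Both tables hold the same 1448 genes and appear to have been selected by a fold change of about 2, which leaves out small differences. Library depth is unknown, so counts were compared without scaling. Ratios of AdipKO over WT used a pseudocount of 1 on the log2 scale, a limit of 2-fold, and exact (Clopper-Pearson) 95% intervals of the rounded counts (SciPy 1.17.1). With 1 library per genotype no test was made. The interval code was checked on simulated counts. Reads are not independent molecules, so intervals cover counting error only.

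The genes and lists were chosen with earlier results of these data known. Named genes were the 7 genes, up to 4 of each list with the largest ratios, and the nearest gene of each; Gsta3, Gstm3, Gclm, Ftl1, Slc7a11, Dhrs3, Aoc2 and the stem cell markers named singly fall outside this rule and were picked with their values in view. Of 1448 gene IDs, 1436 matched RefSeq GRCm38.p6. Transcript lengths came from GENCODE M21 and were known for 1385 genes (95.6%). Coding sequences were aligned globally with Biopython 1.88. The comparison of proteins that had been planned was not made. Other pseudocounts, limits and scalings, and a minimum of 16 counts, were tried as alternatives.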

Additional observations from a re-analysis of the deposited data

How the results depend on the processing

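Making the listed totals equal adds 0.22 to every log2 ratio, and the median of the 7 genes was then 2.43. The mean in place of the median was 2.11. Scaling by the middle of the gap in the ratios adds 0.042. All 7 genes were 2-fold or more higher under each pseudocount and scaling, and 5 were at a limit of 4-fold. Both scalings only raise ratios of AdipKO over WT, so they could not have taken a gene out of the 7. Of 28 alternative values of the single ratios, the 7 with equal totals moved past their counting intervals, and none changed sign. At a 4-fold limit, 2 of the 13 other listed NRF2 targets were higher, beside 9.94% of all listed genes. So were 1 of the 4 other listed carbonyl reductases and 1 of the 4 other listed amine oxidases, and nothing is read from these counts. That carbonyl reductase was Cbr2, with only 11 counts in AdipKO and 2 in WT. The use of the longest transcript for levels was chosen after the data had been seen. No paired analysis was possible because each genotype had 1 library. No estimate of variation between cultures or mice can be had from these libraries, and the tables leave out genes that differed little.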

Other observations

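Of 28 enzymes that oxidise aldehydes or alcohols, 3 were in the tables, 1 of them 2-fold or more higher in AdipKO and 2 lower. By the same limit, 35.3% of all listed genes were higher and 62.2% lower, and nothing is read from the split of these 3 enzymes. All 3 act on aldehydes and form carboxylic acids. Aldh1a1, which makes retinoic acid from retinaldehyde, had 614 counts in AdipKO and 298 in WT, 2.06-fold higher (1.79 to 2.37). Aldh3b2 had 1 count in AdipKO and 13 in WT, a ratio whose 95% counting interval runs from 0.0018 to 0.51, and Aox4 had 0 in AdipKO and 7 in WT. The other 25 genes of that list, all of the alcohol dehydrogenases among them, were outside the tables.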
